A study of Mus musculus with 12 samples.

Results

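Cluster 3 of the deposited cell table is a cluster of tumour-infiltrating T cells whose leading genes were the chemokine genes Ccl3, Ccl1, Ccl4 and Xcl1, the cytokine gene Ifng and several granzyme genes. Its members are the cells with cluster number 3 and the label T cells, 5951 of the 45477 cells deposited. They came from 6 tumours, with 1895, 823 and 1952 cells from control mice 1, 2 and 3 and 172, 683 and 426 from CAL-101 mice 1, 2 and 3.

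All mice were Rag1-deficient hosts (B6.129S7-Rag1tm1Mom/J), which make no mature T or B cells of their own but keep NK and myeloid cells. Each bore an intradermal B16-F10 melanoma, a tumour of a mouse melanoma cell line, and received Pmel Thy1.1 CD8+ T cells by retro-orbital injection. Pmel T cells carry a transgenic receptor for the melanocyte antigen gp100. Before transfer the T cells had been treated in vitro with vehicle (control, 3 mice) or with idelalisib, also called CAL-101, which blocks the PI3K delta enzyme of lymphocytes (3 mice), so the drug was given to the cells and not to the mice. Live CD45.2+ cells were sorted from the dissociated tumours, stained with a panel of 102 antibodies carrying sequence tags, 7 of them isotype controls, and sequenced for 3' RNA and tags. The labels give no age, dose or time, and do not say whether the T cells of the 3 mice of a group came from 1 culture. If they did, the p-values measure only the spread between mice.

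CD8 T cells that meet antigen in a tumour release cytokines and chemokines and deliver granules of perforin and granzymes to the target cell. The chemokines CCL3 and CCL4 attract T cells and myeloid cells, CCL1 is the ligand of the receptor CCR8, and XCL1 that of XCR1 on cross-presenting dendritic cells, while interferon gamma, the product of Ifng, acts on most nucleated cells. Under lasting antigen, T cells with the transcription factor TCF1 (Tcf7) keep the capacity to renew, and more differentiated cells lose it and express inhibitory receptors such as TIM-3 (Havcr2, CD366).

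The promoters of 3 leading genes are shown because their products name the cluster. They are the 250 bases before the RefSeq start in GRCm38.p6, and capitals mark matches on either strand to GGAAA, the core bound by NFAT factors, to the AP-1 motif TGANTCA or to the RUNX motif TGTGGT.
Ccl1, chr11:82179813-82180062, minus strand: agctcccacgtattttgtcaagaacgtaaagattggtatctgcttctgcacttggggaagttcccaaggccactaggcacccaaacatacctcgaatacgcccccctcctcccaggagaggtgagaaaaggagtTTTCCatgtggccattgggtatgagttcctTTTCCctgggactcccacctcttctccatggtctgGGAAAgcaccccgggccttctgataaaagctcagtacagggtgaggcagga
Ccl3, chr11:83649379-83649628, minus strand: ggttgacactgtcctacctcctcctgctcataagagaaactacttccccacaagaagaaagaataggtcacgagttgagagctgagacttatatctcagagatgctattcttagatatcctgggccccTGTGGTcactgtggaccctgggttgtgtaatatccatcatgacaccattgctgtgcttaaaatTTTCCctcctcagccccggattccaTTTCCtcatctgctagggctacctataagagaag
Ifng, chr10:118440796-118441045, plus strand: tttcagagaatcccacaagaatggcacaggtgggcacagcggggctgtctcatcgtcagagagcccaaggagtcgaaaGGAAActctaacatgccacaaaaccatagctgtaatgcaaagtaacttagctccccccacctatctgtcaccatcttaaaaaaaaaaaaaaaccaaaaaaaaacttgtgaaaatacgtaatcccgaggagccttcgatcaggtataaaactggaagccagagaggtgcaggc
GGAAA had 3 matches for Ccl1, 2 for Ccl3 and 1 for Ifng, and 55.6% of the 32851 RefSeq promoters cut to this length hold at least 1. TGTGGT had 1 match, for Ccl3, and 14% of promoters hold it. TGANTCA had 0 in these windows, and 6.75% of promoters hold it. A match describes letters and shows no binding.

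By RNA and by CD8a and CD90.2 antibody the cells matched their label. Cd3e ranged from 433 to 507 CPM over the 6 mice and Cd8a from 364 to 562, where CPM is a gene's count scaled to a common total of RNA counts per mouse. CD8a antibody took 6.11% to 7.85% of all tags, against 0.256% to 0.446% in the NK cells of cluster 0. CD90.2, carried by host cells and not by Thy1.1 donor cells, took 0.038% to 0.0988%, against 1.66% to 2.5%. CD3 antibody overlapped between them, at 0.387% to 0.722% against 0.301% to 0.56% in NK cells. Genes of other cell types were low. The 12 NK cell markers summed to 111 to 156 CPM in control and 138 to 193 CPM in CAL-101 mice, against 6072 to 6927 in the NK cells. With Eomes not counted, 30.1% ± 1.35 and 27.3% ± 3.9 of members held at least 2 NK markers. Between the groups of cluster 3, of 10 NK markers tested Klre1 rose and Klrb1c and Klrb1b fell, with a median log2 fold change of -0.74. Klrb1c averaged 8.24 CPM in control and 3.04 in CAL-101 mice, and Ncr1 0.915 and 0.186, and the part of such genes in other results was not tested. The macrophage markers summed to at most 10.7 CPM, the neutrophil markers to 5.87, the melanoma markers to 6.51 and the B cell markers to 4.24. The 9 dendritic cell markers, among them Ccr7 and H2-Ab1, which T cells can also express, summed to 348 to 945 CPM in control and 155 to 311 in CAL-101 mice, with Cd209a at 0.

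The median member of a mouse held 13440 to 19188 RNA UMIs (unique molecular identifiers, 1 per captured transcript), of which 2.69% to 3.14% were mitochondrial. The clusters it is compared with differed in depth. Clusters 1 and 4 had medians of 2518 to 5516 UMIs and mitochondrial shares of 11.2% to 18.1%, cluster 2 had 21982 to 32067 UMIs, and cluster 5 was closest, at 12791 to 17000. In cluster 3, 37 cells had over 20% mitochondrial or under 1000 UMIs, and 5 barcodes occurred in more than 1 library. Control mouse 2 stood apart: over 5952 genes its mean absolute log2 difference was 0.173 from control mouse 1 and 0.177 from control mouse 3, while mice 1 and 3 differed by 0.0691. CAL-101 mouse 1 also lay farther from its group, at 0.207 and 0.169 from CAL-101 mice 2 and 3, which differed by 0.128. Among the control mice it lay closest to control mouse 2, at 0.233 against 0.247 and 0.257 from control mice 1 and 3. CAL-101 mice 2 and 3 lay farthest from control mouse 2, at 0.252 and 0.234.

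Cluster 3 made up a smaller share of the T cells in CAL-101 tumours. It held 32.2, 20.3 and 30.5% of the T-labelled cells in control mice 1, 2 and 3 and 4.47, 10.7 and 7.6% in CAL-101 mice 1, 2 and 3. Every CAL-101 mouse lay below every control mouse, with means of 27.6% ± 6.44 and 7.59% ± 3.13 (SD, n = 3 each, exact 2-sided permutation p = 0.1). Between 3 and 3 mice 0.1 is the smallest p this test can give. In edgeR's test on the cell numbers of the clusters the log2 ratio was -1.86 (adjusted p = 0.0214). Fewer cells of the cluster and more cells of other clusters cannot be told apart in shares.

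**Figure D1:**
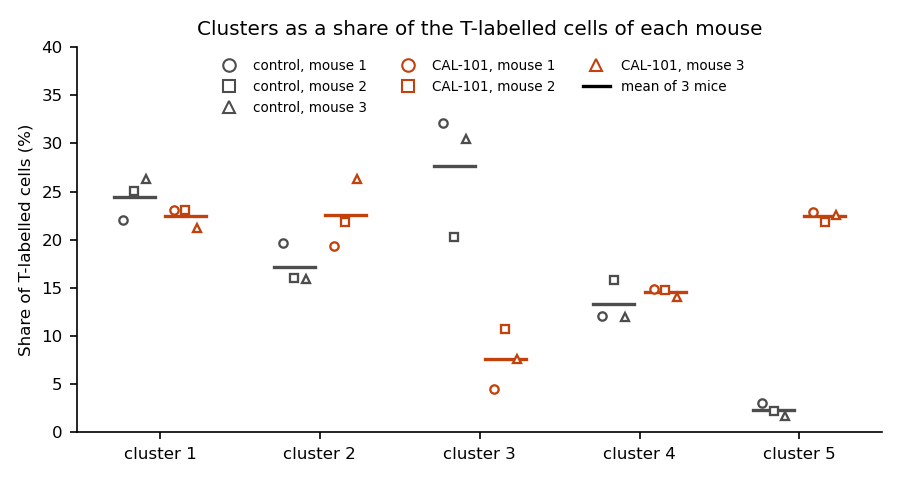
Share of each mouse's T-labelled cells (%) in clusters 1 to 5, with 1 symbol per mouse and a bar at the mean of 3 mice. In cluster 3 the control mice lie between 20.3% and 32.2% and the CAL-101 mice between 4.47% and 10.7%.

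The leading genes encoded secreted and cytotoxic products. The clusters were drawn from these same counts, so the comparison with clusters 1, 2, 4 and 5 is a description without a test. Of 6181 genes of at least 20 CPM, 157 (2.54%) were highest in cluster 3 in all 6 mice and 107 (1.73%) were lowest. Ccl3 averaged 357 ± 165 CPM (SD over 6 mice) against 48.8, 81.2, 57.3 and 66.5 in clusters 1, 2, 4 and 5. Its median log2 ratio to the highest other cluster of the same mouse, 2.0, headed the ranking by that ratio. Ccl1 followed at 363 ± 322 CPM and a ratio of 1.86, Ccl4 at 653 ± 262 and 1.73, Xcl1 at 1174 ± 741 and 1.35, and Ifng at 844 ± 384 and 1.03. Ccl1 varied widely between mice, from 132 to 961 CPM. Of 6 chemokine genes of at least 20 CPM, 4 were highest in cluster 3 in every mouse.

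The cytotoxic granule genes were the other large group, with 10 of 14 genes of at least 20 CPM highest in cluster 3 in all 6 mice. Gzmb, a granzyme that cleaves caspases, averaged 2238 ± 420 CPM against 1429 in cluster 2 and 661 to 752 in clusters 1, 4 and 5. Prf1, which encodes the pore protein perforin, averaged 229 ± 49.1 CPM against 41.2 to 108. Gzmf averaged 603 ± 446 and Gzmc 1451 ± 244, with ratios of 1.67 and 0.96. These granzymes are closely related neighbours, and reads may be split between them. Serpinb9b and Serpinb6b, of the serpin family of protease inhibitors, had ratios of 0.81 and 0.79. Lgals3 (galectin-3) averaged 557 ± 129 CPM and Anxa1 (annexin A1) 52.7 ± 25.3, both highest in 6 of 6 mice.

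Some genes named with the cluster were not highest there. Ifitm1, an interferon-inducible membrane protein gene, was highest in 5 of 6 mice, at 1297 ± 438 CPM against 829 in cluster 2. Themis, an adaptor of T cell receptor signalling, was highest in 0 of 6. It averaged 1259 ± 238 CPM, below clusters 1 (1816) and 4 (2020) and above clusters 2 (1076) and 5 (964). Tnf, the tumour necrosis factor gene, averaged 58.2 ± 7.5 CPM against 106 in cluster 1 and 98.5 in cluster 4.

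The lowest genes were led by Tcf7, at 12.6 ± 5.08 CPM against 37.7 to 86.3 in the other clusters and lowest in 6 of 6 mice. Tox, a transcription factor gene linked to exhaustion, averaged 226 ± 129 CPM against 376 to 865 and was lowest in 6 of 6. Cenpf, a centromere gene of dividing cells, was at 8.91 ± 1.89 CPM against 176 in cluster 2 and 195 in cluster 4. Aff3 and Cd163l1 averaged 59.2 ± 14.7 and 11.3 ± 5.45, and Synpo, Dnah8, Cdc25b, Smchd1 and Dleu2 completed the 10 lowest.

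**Figure D2:**
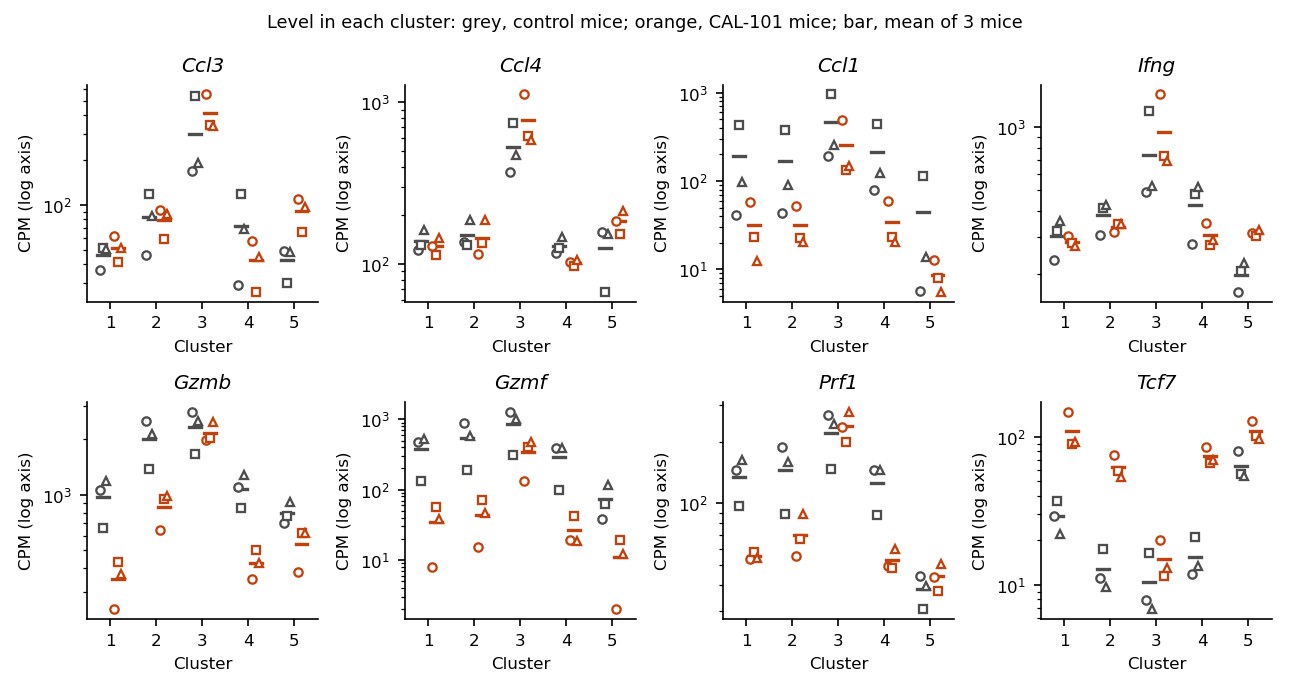
CPM of 8 genes in clusters 1 to 5 on log axes, with 1 symbol per mouse and a bar at the mean of 3 mice. Ccl3 averages 357 CPM in cluster 3 against 48.8 to 81.2 elsewhere, and Tcf7 12.6 against 37.7 to 86.3.

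The antibody panel gave smaller differences between clusters. Of 102 antibodies, 2 (1.96%) were highest in cluster 3 in all 6 mice and 4 (3.92%) were lowest. CD366, the TIM-3 receptor, took 1.61 ± 0.254% of tags against 0.923 to 1.23% elsewhere, and CD49b, the integrin alpha 2 chain, 0.356 ± 0.105% against 0.211 to 0.291%. Ly108, encoded by Slamf6, took 0.0654 ± 0.0169% against 0.087 to 0.309%. The highest of these means, in cluster 5, rests on CAL-101 mouse 2 at 1.24%, with the other mice at 0.0873% to 0.172%. In cluster 3 Ly108 was lowest in 6 of 6 mice and lay near the isotype controls of these cells, which took 0.0159% to 0.08%. CD5, a receptor that dampens T cell receptor signals, was lowest in 5 of 6 mice.

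Within the cluster a minority of cells held most of the Ccl3, Ccl4 and Xcl1 transcripts. With each cell thinned at random to 3000 UMIs, the 10% of cells richest in Ccl3 held 80.2% to 93.6% of its UMIs in a mouse. The range was 76.7% to 91.6% for Ccl4, 76.3% to 89.3% for Xcl1 and 52.2% to 81.1% for Ifng. It was 46.7% to 56.3% for the chemokine gene Ccl5, 32.4% to 42.2% for Gzmb and 25.7% to 31.3% for Themis, which were spread over more cells. Some genes of low level also reached high shares, with 67.6% to 85.5% for Tnf, 49.7% to 70.6% for Tox and 100% for Tcf7. High shares were thus not particular to the chemokine genes, and the part of a gene's level in them was not tested. Cells with a Ccl3 UMI also held the other products more often. Ccl4 was found in 58.4% to 74.1% of them and in 16% to 32.4% of cells without Ccl3, higher in 6 of 6 mice. Ifng was found in 66.3% to 77.1% and 38.3% to 57.4%, also higher in 6 of 6, and Ccl1 in 14% to 66.3% and 6.03% to 33.6%. Prf1 was found more often with Ccl3 in 3 of 6 mice. Gzmb was found in 83.1% to 94.5% of cells with Ccl3 and 77.6% to 92.9% of those without, higher in 5 of 6 mice. Cells share a library and its free RNA, so these are descriptions.

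At this equal depth a larger share of cluster 3 cells held Ifng, Ccl4 and Ltb transcripts in every CAL-101 mouse. Ifng was detected in 43.2, 46.2 and 46.4% of cells in control mice 1, 2 and 3 and in 62.7, 56.7 and 61.1% in CAL-101 mice 1, 2 and 3. The groups did not overlap, with means of 45.3% ± 1.77 and 60.2% ± 3.1 (SD, n = 3 each, exact permutation p = 0.1, adjusted p = 0.22 over 11 genes). Ccl4 was detected in 27.3, 27.9 and 29.5% and in 46.4, 35.4 and 40.5% (exact permutation p = 0.1, adjusted p = 0.22). Ltb, the gene of lymphotoxin beta, was detected in 47, 41 and 46.7% and in 58.4, 57.9 and 62.3% (exact permutation p = 0.1, adjusted p = 0.22). Neither overlapped between the groups. No gene can pass the adjusted test with 3 mice a group.

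Ccl3 was detected in 13.5, 20.4 and 13.7% of control and 34.9, 19.1 and 25.4% of CAL-101 cells, with CAL-101 mouse 2 below control mouse 2 (exact permutation p = 0.2, adjusted p = 0.367). Ccl5 and the death ligand gene Fasl lay lower in every CAL-101 mouse. Their means were 67.6% ± 6.27 and 59.9% ± 0.718 for Ccl5 (exact permutation p = 0.1, adjusted p = 0.22) and 18.3% ± 1.3 and 13.7% ± 2.74 for Fasl (exact permutation p = 0.1, adjusted p = 0.22). Ccl1 was detected in 14.3, 40.3 and 16.9% and 18.7, 10.1 and 8.06%, with control mouse 2 far above the others. Xcl1, Tnf, Il2 and Csf2 gave exact permutation p-values of 0.6, 0.3, 0.5 and 1.0. As background, neutrophils of the same libraries held an Ifng UMI in 10.4%, a Ltb UMI in 34.4% and a Ccl5 UMI in 22% of 241 cells thinned alike, and they make Ccl3 and Ccl4 themselves. Unthinned, the Ifng shares were 77% ± 1.04 and 89.2% ± 0.763. Thinning left out 2 to 30 shallower cells a mouse.

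**Figure D3:**
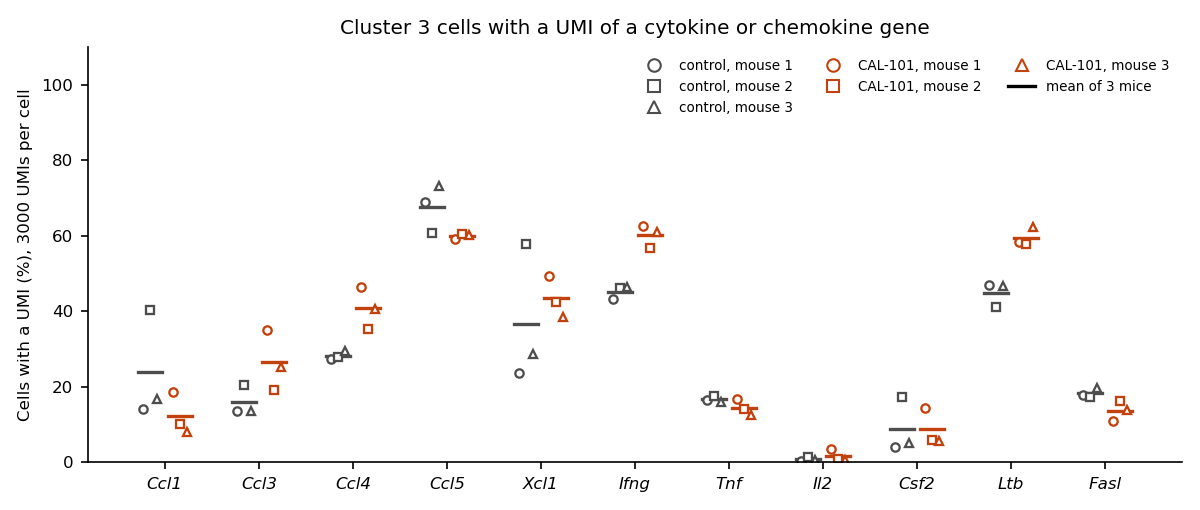
Percent of cluster 3 cells with at least 1 UMI of each of 11 cytokine and chemokine genes after thinning to 3000 UMIs per cell, with 1 symbol per mouse and a bar at the mean of 3 mice. For Ifng the means are 45.3% in control and 60.2% in CAL-101 mice, and control mouse 2 stands alone for Ccl1 at 40.3%.

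RNA counts were then summed per mouse over the members and compared between CAL-101 and control by edgeR's quasi-likelihood test, with p-values adjusted over all genes. The test takes cluster membership as given, although the same counts shaped it. Of 12805 genes, 863 (6.74%) passed an adjusted p of 0.05, 418 (3.26%) higher and 445 (3.48%) lower in CAL-101 mice. For the counts of list members called by this test, these shares over all genes are the background. The mice of the 2 groups did not overlap in 3879 genes (30.3%). The number of calls was 171 without CAL-101 mouse 3, 358 without CAL-101 mouse 2, 359 and 294 without control mouse 1 or 3, and 1358 without control mouse 2.

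Of the 6 genes that mark the cluster 0 passed, and 1 had an unadjusted p under 0.05, against 2885 of 12805 genes tested. Ccl3 stood at 169, 541 and 190 CPM in control mice 1, 2 and 3 and at 554, 347 and 341 in CAL-101 mice 1, 2 and 3, a log2 fold change of 0.38 ± 0.41 (SE, edgeR adjusted p = 0.64). Control mouse 2 lay within the CAL-101 range, and without it the value was 1.14 (edgeR adjusted p = 0.00388). Without control mouse 1 instead, the value for Ccl3 was 0.095. Ifng stood at 492, 1201 and 525 CPM and at 1434, 727 and 689 (0.28 ± 0.38, edgeR adjusted p = 0.716). It was highest in control mouse 2 and CAL-101 mouse 1, and without the latter the value was -0.14.

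Ccl1 stood at 190, 961 and 255 CPM in control and 497, 132 and 146 in CAL-101 mice (-0.97 ± 0.66, edgeR adjusted p = 0.435), and without control mouse 2 the sign turned, to 0.12. Xcl1 was highest in control mouse 2 and CAL-101 mouse 1, at 480, 1794 and 488 and at 2311, 1139 and 830 CPM (0.55, edgeR adjusted p = 0.596), and reached 1.5 without control mouse 2 (edgeR adjusted p = 0.016), but 0.01 without CAL-101 mouse 1. Ccl4, Themis and Ifitm1 had log2 fold changes of 0.48, 0.34 and -0.5, with edgeR adjusted p of 0.385, 0.126 and 0.403. Of the related genes, Ifitm2 (-0.68, edgeR adjusted p = 0.0155) and Ifitm3 (-0.63, edgeR adjusted p = 0.0233) fell. Ifitm1 was low in CAL-101 mouse 1 alone, at 501, 1551 and 1258 against 1431, 1255 and 1787 CPM in control mice.

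Some other cytokine and chemokine genes did change. Of 19 lymphocyte cytokine genes tested, 2 rose and 1 fell, with a median log2 fold change of 0.06 against -0.002 over all genes. Ltb rose from 232, 209 and 233 CPM to 342, 355 and 377, by 0.6 ± 0.07 on the log2 scale (SE, edgeR adjusted p = 0.00303). Il21, a helper cytokine gene, rose by 3.82 but only from 0.177 to 2.65 CPM, and Cd40lg fell. Of 8 chemokine genes, Cxcl10 rose and Ccl5 and Ccl9 fell. Cxcl10, an interferon-induced ligand of CXCR3, stood at 32, 28 and 29.1 CPM in control and 58.3, 93.9 and 66 in CAL-101 mice (1.25 ± 0.15, edgeR adjusted p = 0.00303). Ccl9 stood at 22.9, 88 and 23.1 and 7.4, 1.48 and 2.95 CPM (-3.94), a call lost without CAL-101 mouse 2 or 3. Ccl5, a further T cell chemokine gene, fell by 0.51 (edgeR adjusted p = 0.0326), a call lost on leaving out any 1 mouse except control mouse 2.

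Among 12 chemokine receptor genes 1 rose and 3 fell, with a median of -0.38. Cxcr3, the receptor for CXCL10, stood at 12.2, 14.5 and 10.5 CPM in control and 31.1, 41.2 and 46 in CAL-101 mice, a log2 fold change of 1.64 ± 0.16 (SE, edgeR adjusted p = 0.000953). The groups did not overlap. CD183, the antibody against the CXCR3 protein, took 0.578 ± 0.062% and 0.681 ± 0.0503% of tags (SD, n = 3 each). Its groups did not overlap either, but the change was small and did not pass (0.17, edgeR adjusted p = 0.324). Ccr7, a lymph node homing receptor gene, fell from 246, 643 and 229 CPM to 134, 64.7 and 77.2 (-2.13 ± 0.43, edgeR adjusted p = 0.0215), a call lost without CAL-101 mouse 2 or 3. Ccr1 and Ccr4 also fell.

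The cytotoxic genes fell in part. Of 17 tested, 6 fell and 0 rose, against 3.48% and 3.26% of all genes, with a median log2 fold change of -0.62. Gzma, encoding granzyme A, stood at 1115, 1135 and 1126 CPM in control mice and at 110, 46.1 and 54 in CAL-101 mice, a log2 fold change of -4.13 ± 0.28 (SE, edgeR adjusted p = 0.000201). Every CAL-101 mouse was far below every control mouse. At 3000 UMIs its UMIs were found in 54.9% ± 3.33 and 7.05% ± 2.02 of cells in the 2 groups, and in 26.1% of neutrophils pooled over all libraries, most of them from control mice. NK cells of these tumours held 8874 and 8249 CPM. Serpinb9b fell from 146, 110 and 133 to 17.8, 13.5 and 26.7 CPM (-2.83, edgeR adjusted p = 0.000286) and Serpinb6b from 471 ± 20.2 to 267 ± 60.3 (SD, n = 3, -0.89). Serpinb9, Gzmd and Gzmg also fell. Gzmb, at 2324 ± 590 and 2152 ± 267 CPM, did not pass (-0.17 ± 0.16, edgeR adjusted p = 0.582), and without control mouse 2 it did (-0.35, edgeR adjusted p = 0.044). Prf1 stood at 220 ± 64.1 and 238 ± 40.8 (0.05, -0.16 without control mouse 2).

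Transcription factor genes changed in both directions. Tox stood at 99.7, 117 and 119 CPM in control and 378, 284 and 360 in CAL-101 mice (1.54 ± 0.13, edgeR adjusted p = 0.000535), so the gene lowest in this cluster among the 5 was higher there after CAL-101. Ikzf2, which encodes Helios, rose from 306, 210 and 282 CPM to 554, 587 and 591 (1.06), and Batf, an AP-1 factor of activated T cells, from 34 ± 4.0 to 62 ± 6.65 (0.78). Of 13 exhaustion and effector regulators, Ikzf2, Tox, Runx3 and Cd38 rose and Zeb2 fell. Of 14 genes of progenitor exhausted T cells 0 rose and Bach2, Foxp1, Satb1, Lef1 and Ccr7 fell. The median log2 fold change of this list was 0.1, so the decrease was not shared by the list as a whole. The Lef1 call was kept in 8 of 15 alternative settings. Bach2, a repressor of effector differentiation, fell from 606, 687 and 551 CPM to 233, 348 and 269 (-1.18 ± 0.14, edgeR adjusted p = 0.00303), and Foxp1, a quiescence factor, from 494, 434 and 448 to 277, 294 and 275 (-0.77). Tcf7, which defines such cells, was at 7.84, 16.5 and 6.84 and 20.1, 11.5 and 12.9 CPM and did not pass (0.41 ± 0.35, edgeR adjusted p = 0.547). Slamf6 (0.58, edgeR adjusted p = 0.355) and its protein Ly108 (0.54, edgeR adjusted p = 0.0744) did not pass either.

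Genes of receptor signalling changed in both directions. Of 27 T cell receptor complex and proximal signalling genes, Cd5, Cd6, Cd8a, Lcp2 and Ptpn6 rose and Cd8b1 fell, with the Cd8a call kept in 8 of 15 alternative settings. Cd5 rose from 49.1, 50.3 and 53.5 CPM to 95, 91.9 and 95.4 (0.81 ± 0.07, edgeR adjusted p = 0.000661). Among 27 genes of the PI3K and FOXO pathway, to which the drug's target belongs, Phlpp1 and Foxo1 rose and Foxo3, Pik3r5 and Pik3r1 fell. Phlpp1, a phosphatase of AKT, rose from 172 ± 18.2 CPM to 344 ± 18.3 (0.93), and Pik3r1, a regulatory subunit of the kinase, fell from 183 ± 5.16 to 113 ± 25.7 (-0.74). Of 14 type I interferon response genes Usp18 (1.01) and Isg20 (0.8) rose, 11 had an unadjusted p under 0.05, against 2885 of all 12805 genes, and the median was 0.53.

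Of 12 inhibitory receptor genes Vsir and Cd200r1 rose and 0 fell. Pdcd1, Lag3 and Havcr2 did not pass, at log2 fold changes of 0.2, -0.39 and 0.34. Of 14 dissociation and heat shock genes, Hsph1 and Hsp90aa1 rose and Ier3 fell, with a median of 0.34; their part in the other results was not tested. Of 16 proliferation genes 0 passed edgeR's test, and 4 had an unadjusted p under 0.05, against 2885 of 12805 over all genes.

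The 10 largest decreases and 10 largest increases among genes of at least 20 CPM without overlap held further genes. Kcnk10, a potassium channel gene, fell from 95.5, 106 and 120 CPM to 25.2, 21.3 and 29.3 (-2.17). Plcl1 fell from 133 ± 15.6 to 52.4 ± 4.65 (-1.42), Spp1 (osteopontin) from 167 ± 32.6 to 59.7 ± 24.2 (-1.56) and Anxa1 from 74.9 ± 8.38 to 30.4 ± 7.1 (-1.37). Igsf5 (-2.28) and Ms4a4c (-1.5) also fell. Ighm, the immunoglobulin mu chain gene, rose from 31.5, 25.2 and 27.7 CPM to 98.2, 90.3 and 90.0 (1.65 ± 0.09, edgeR adjusted p = 7.20e-05), although the B cell markers summed to at most 4.24 CPM. Tcrg-C4, a gamma chain constant gene, rose from 18.3 ± 3.55 to 66.8 ± 11.3 (1.81) and Fndc3b from 14.6 ± 2.98 to 54.9 ± 2.3 (1.83). Ctnnd2 (1.91), St3gal6 (1.65), Trerf1 (1.47), St6gal1 (1.47) and P2ry14 (1.41) completed the increases. The Ctnnd2 call was kept in 8 of 15 alternative settings, and those of Trerf1 and P2ry14 in 11 and 11.

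**Figure D4:**
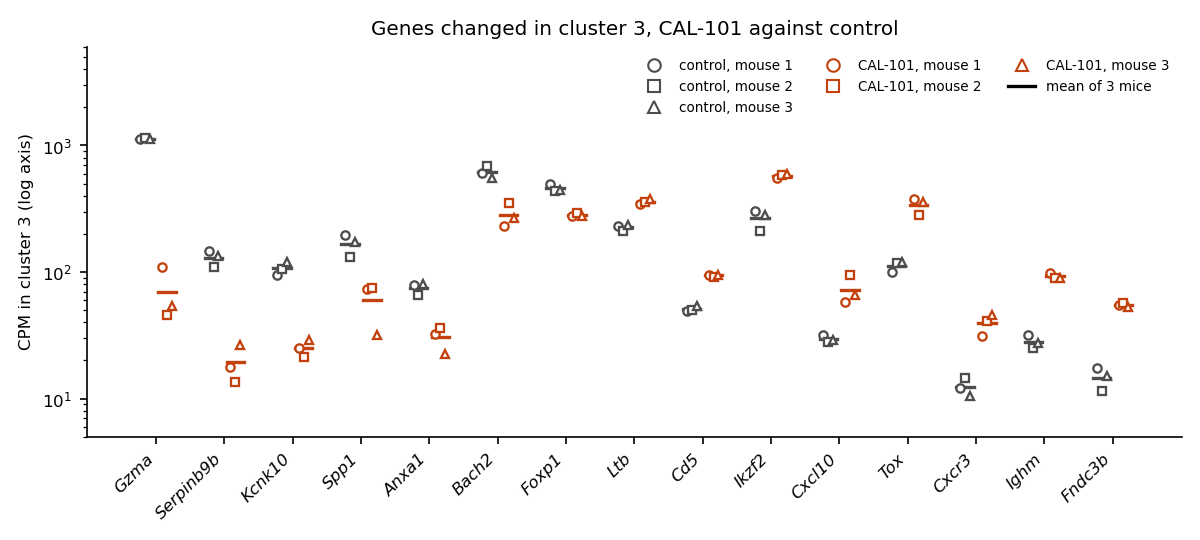
CPM of genes in cluster 3 that differed between the groups, on a log axis, with 1 symbol per mouse and a bar at the mean of 3 mice. For Gzma the control mice lie at 1115, 1135 and 1126 CPM and the CAL-101 mice at 110, 46.1 and 54.

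On the cell surface 6 of 102 antibodies (5.88%) passed edgeR's test on tag counts, 1 (0.98%) higher and 5 (4.9%) lower, while the mice did not overlap in 34 (33.3%). The tags of the antibodies the results turn on are shown because reads identify each protein only through them.
CD357: ggcactctgtaacat
CD5: cagctcagtgtgttg
CD49b: cgcgttagtagagtc
CD366: attggcactcagatg
CD357 is GITR, a costimulatory receptor encoded by Tnfrsf18. It took 5.72, 6.53 and 6.0% of tags in control mice 1, 2 and 3 and 3.27, 2.87 and 3.25% in CAL-101 mice 1, 2 and 3 (log2 fold change -1.03 ± 0.1, SE, edgeR adjusted p = 0.003). Of the 6 antibodies it alone kept its call in all 15 alternative settings. Tnfrsf18 fell as well, from 340 ± 32.3 to 238 ± 28 CPM (-0.59, edgeR adjusted p = 0.0168). CD5 took 1.14, 0.977 and 1.09% and 1.9, 1.59 and 2.05% (0.72 ± 0.13, edgeR adjusted p = 0.0247), the direction of its gene, though the call was lost on leaving out any 1 mouse except CAL-101 mouse 2. CD49b fell from 0.446 ± 0.0531% to 0.267 ± 0.0307% (-0.81) and CD31 from 0.262 ± 0.0249% to 0.175 ± 0.00934% (-0.65). CD11c fell from 0.195 ± 0.069% to 0.0599 ± 0.00258% and CD11b from 0.0399 ± 0.00246% to 0.0244 ± 0.00193%, where all CD11b values and the CAL-101 values of CD11c lie within the range of the isotype controls. In the NK cells of cluster 0, CD49b took 6.28% to 9.01% of tags, CD31 0.422% to 0.581%, CD11c 0.519% to 0.713% and CD11b 0.903% to 1.11%. The part of NK cell tags in these decreases was not tested. CD366 (0.2), CD279 (0.23) and CD44 (-0.35) did not pass.

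The response of cluster 3 was then set against that of clusters 1, 2, 4 and 5 in the same mice. For each mouse the log2 level in cluster 3 minus the mean of the other 4 clusters was taken, and limma tested it between the groups. Of 12805 genes, 221 (1.73%) differed, 123 (0.961%) higher and 98 (0.765%) lower in cluster 3. Without control mouse 2 the count was 64, and leaving out in turn the first control mouse, the third control mouse and the third CAL-101 mouse gave 110, 109 and 116. Against cluster 5 alone, whose control mice gave 91 to 179 cells each, 4 genes differed. The authors' clusters come from the same cells, so membership is not independent of the genes compared, and the differences for granule genes, Ccl1 and Tcf7 are given as descriptions of these clusters. The part of the cluster assignment in them was not tested. Depth and mitochondrial share differ between the clusters, and their part in these differences was not tested.

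Of the cytotoxic genes, 7 of 17 were higher in the difference and 0 lower. Gzmc stood at 1855, 1397 and 1443 CPM in control and 1101, 1525 and 1384 in CAL-101 mice of cluster 3, a log2 fold change of -0.29, while in clusters 1, 2, 4 and 5 the changes were -1.87, -2.1, -1.82 and -1.95 (difference 1.66 ± 0.19, SE, limma adjusted p = 0.000405). Gzmb changed by -1.51, -1.27, -1.35 and -0.6 in those clusters (difference 1.03 ± 0.12, limma adjusted p = 0.000467). Prf1 changed by -1.31, -1.1, -1.28 and 0.14 (difference 0.93 ± 0.07, limma adjusted p = 6.77e-05), with the sign turned against cluster 5 alone (-0.09). Gzme and Gzmf differed by 2.06 and 2.03. Gzma fell in all 5 clusters, with log2 fold changes in the other 4 of -3.98, -4.1, -4.25 and -3.07, and its difference did not pass (-0.2 ± 0.11, limma adjusted p = 0.464).

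Ccl1 showed the same direction, with log2 fold changes of -2.65, -2.5, -2.74 and -2.32 in clusters 1, 2, 4 and 5 (difference 1.19 ± 0.2, limma adjusted p = 0.00778). Ifitm1 changed by -1.58, -1.64, -1.5 and -1.77 there (difference 1.19 ± 0.11, limma adjusted p = 0.000106), and its relatives Ifitm2 and Ifitm3 differed by 1.05 and 0.91. Ccl5 and Cxcr6 differed by 0.44 and 0.46, with the sign turned for Ccl5 (-0.5) and Cxcr6 (-0.07) against cluster 5 alone. Their calls were kept in 7 and 9 of 13 alternative settings. Anxa1, Mamdc2, Adamts14 and Mgat3 differed by 1.07, 1.27, 1.27 and 1.77, the last at 0.888 and 1.79 CPM in the 2 groups. Havcr2 differed by 0.66 and its protein CD366 by 0.37 (limma adjusted p = 0.00619). CD366 changed by 0.2 in cluster 3 and by -0.31, -0.26, -0.29 and 0.17 in clusters 1, 2, 4 and 5, so cluster 5 lay close to cluster 3. Over 13 alternative settings the lowest difference was 0.00879 for Havcr2 and 0.0431 for CD366. CD366 and the adhesion molecule CD54 (0.29) were the 2 of 102 antibodies (1.96%) that differed.

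Of the genes of progenitor exhausted cells, 5 of 14 were lower in the difference and 0 higher. Tcf7 rose by 1.89, 2.25 and 2.22 in clusters 1, 2 and 4, with 0.7 in cluster 5 and 0.41 in cluster 3 (difference -1.27 ± 0.19, limma adjusted p = 0.00328). Bach2 and Ccr7 differed by -0.69 and -0.83, and Sfmbt2, St8sia1, Dach2 and Dthd1, all low in cluster 3, by -1.8, -1.68, -1.61 and -1.52. Of 13 alternative settings the call was kept in 3 for Sfmbt2, 7 for Dach2, 6 for Dthd1 and 6 for Mgat3. For Tox, Ikzf2 and Ltb the difference did not pass, at -0.13 ± 0.08, 0.03 ± 0.1 and 0.01 ± 0.06 (SE). Against cluster 5 alone Ighm differed by 1.36, Ifitm3 by 0.9, Itpr1 by -0.57 and Fam129a by -0.68. Ighm was at 126 CPM ± 14.6 in control and 160 ± 18.2 in CAL-101 mice of cluster 5.

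**Figure D5:**
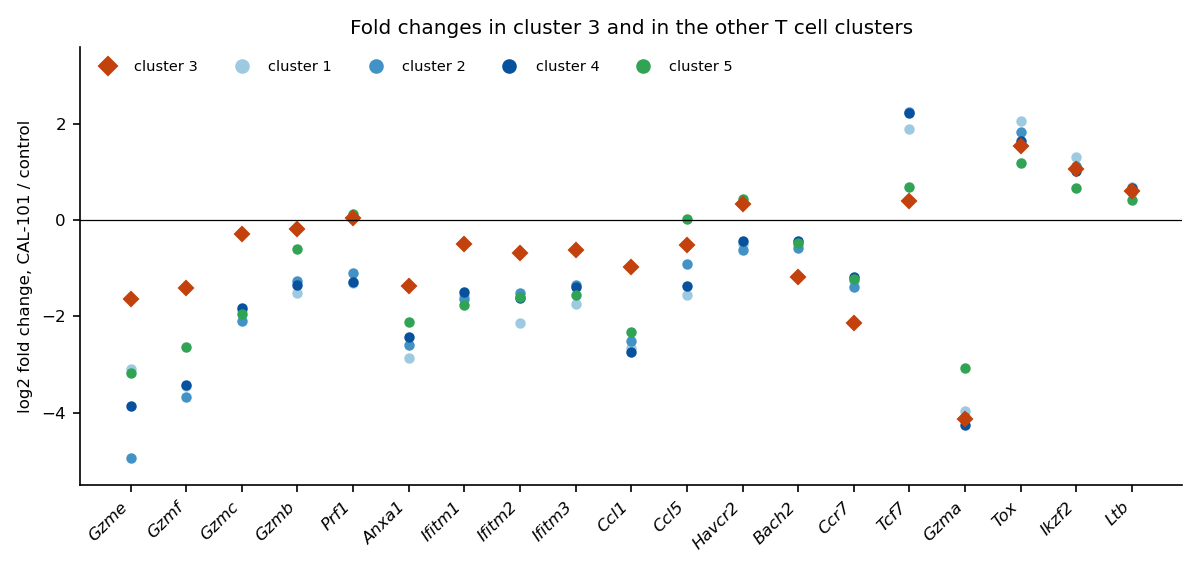
Log2 fold change of CAL-101 against control for named genes in cluster 3 and in clusters 1, 2, 4 and 5. Gzmc is at -0.29 in cluster 3 and -1.87, -2.1, -1.82 and -1.95 in the others, Tcf7 at 0.41 and 1.89, 2.25, 2.22 and 0.7, and Gzma at -4.13 and -3.98, -4.1, -4.25 and -3.07.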

How the data were processed

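The deposited UMI counts of RNA and antibody tags came from Cell Ranger 7.1.0, per the file headers, and the submitters' processing notes name Seurat and mm10. The authors' cell table gave clusters and labels; the sources used here do not give how these were made. Members, gene lists and tests were chosen with earlier results of these data known. Counts were summed per mouse over the members, and levels are CPM or percent of tags. CAL-101 and control were compared with edgeR 4.0.16 (TMM, filterByExpr, quasi-likelihood test, Benjamini-Hochberg at 0.05), with DESeq2 1.42.0 as an alternative. Differences of response used limma 3.58.1 on log2 CPM with a prior count of 2. Ratios between clusters used a pseudocount of 1 CPM. No doublet caller was run. Leaving out 1883 possible doublets (UMIs over the 95th percentile or at least 2 markers of another class, Eomes not counted) was an alternative. Named genes were the 10 largest called changes each way among genes of at least 20 CPM without overlap, fixed genes, and members of the lists, picked from the lists after their values were seen; some of them are not reported here. On simulated counts of 12805 genes for this comparison, edgeR recovered 100% of changes of log2 size 1 and 70% of size 0.5, with 13 false calls. The changed genes were drawn only from those of at least 20 CPM, so recovery of changes in lower genes was not tested. Simulated mice of a group shared the same gene means, so none stood apart as control mouse 2 did. Within each group no library was a repeat of another (chi-square per degree of freedom at least 4.16). Pairs of mice across the groups were not checked this way.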

Additional observations from a re-analysis of the deposited data

Results flagged for a closer look

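Differences of response between cluster 3 and the mean of clusters 1, 2, 4 and 5 that passed limma's test, on the log2 scale, were as follows. The response was higher in cluster 3 by 2.06 for Gzme, 2.03 for Gzmf, 1.77 for Mgat3, 1.66 for Gzmc, 1.27 for Adamts14, 1.27 for Mamdc2, 1.03 for Gzmb, 1.19 for Ifitm1, 1.05 for Ifitm2, 0.91 for Ifitm3, 1.19 for Ccl1, 0.44 for Ccl5, 1.07 for Anxa1, 0.46 for Cxcr6, 0.93 for Prf1 and 0.66 for Havcr2. The value was -1.8 for Sfmbt2, -1.68 for St8sia1, -1.61 for Dach2, -1.52 for Dthd1, -1.27 for Tcf7, -0.69 for Bach2 and -0.83 for Ccr7, lower in cluster 3. Of the proteins, the value was 0.37 for CD366 antibody and 0.29 for CD54 antibody. Of 13 alternative settings the call was kept in 3 for Sfmbt2, 6 for Dthd1, 6 for Mgat3, 7 for Dach2, 7 for Ccl5 and 9 for Cxcr6. Over these settings the lowest value was 0.00879 for Havcr2 and 0.0431 for CD366. Cluster membership is not independent of the genes compared, and its part in these differences was not tested. With 3 mice a group, single mice were not tested as outliers.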

How the results depend on the processing

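Genes called between CAL-101 and control numbered 863, and 297 with a replicate block, 525 with sums thinned to the smallest mouse, 1455 without a low-count filter, 516 at a mean of at least 20 CPM and 171 to 1358 with 1 mouse left out. Antibodies called numbered 6, 26 with DESeq2 and 1 to 12 with 1 mouse left out. Genes with a different response numbered 221, 649 against the summed clusters, 455 against cluster 2, 4 against cluster 5, 368 with the block and 64 to 290 with 1 mouse left out. For antibodies these were 2, 10, 9 against cluster 1, 8 against cluster 2, 8 against cluster 4, 0 against cluster 5, 5 with the block and 0 to 4 with 1 mouse left out. The main tests did not treat same-numbered mice as pairs. Their deviations from the group means correlated at -0.17, -0.19 and 0.04 for RNA, and values this few cannot show whether the mice were paired. The cause of these shifts was not tested.

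The share of cluster 3 differed by -20.0 points, and by -23.7 to -17.8 with 1 mouse left out. On cell numbers edgeR gave a log2 ratio of -1.86, past the threshold, and -1.92 with the replicate block (adjusted p = 0.0861). With 1 mouse left out, these uncalled log2 fold changes took both signs: -1.84 to 0.117 for Ccl1, -0.142 to 0.846 for Ifng, -1.06 to 0.598 for Csf2, -0.158 to 0.213 for Prf1, -0.161 to 0.0869 for CD69, -0.133 to 0.0381 for CD8a and -0.0216 to 0.076 for CD223. Of the values of the opposite sign, those without control mouse 2 were 0.117 for Ccl1, 0.598 for Csf2, -0.158 for Prf1, 0.0869 for CD69 and 0.0381 for CD8a. Differences of response turned for Ccl5 (-0.503), Cxcr6 (-0.0704) and Prf1 (-0.0935) against cluster 5 alone. The Tnf share of cells turned to 1.67 points without thinning, and that of Csf2 to 0.643 at 1600 UMIs, 0.852 without thinning and -2.97 to 4.08 with 1 mouse left out. CAL-101 mouse 1, with 172 cells, limits the precision.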

Other observations

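Clusters 3 and 5 together held 35.2, 22.5 and 32.2% of T-labelled cells in control mice 1, 2 and 3 and 27.4, 32.5 and 30.2% in CAL-101 mice 1, 2 and 3 (exact permutation p = 1.0), while cluster 5 alone held 2.32% ± 0.686 and 22.4% ± 0.565 (SD, n = 3 each). Cluster 3 cells with none of Ccl1, Ccl3, Ccl4, Xcl1 and Ifng at 3000 UMIs were 25.9% ± 7.29 of control and 13.3% ± 3.76 of CAL-101 members, and cells with all 5 were 4.07% ± 3.61 and 3.6% ± 2.11.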
